A study of Mus musculus with 32 samples.

Results

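Muscle fibres burn long-chain fatty acids in several steps. The acids are taken up across the cell surface, joined to coenzyme A, carried into the mitochondrion on carnitine, and shortened there by the repeating reactions of beta oxidation, whose electrons enter the respiratory chain. Skeletal muscle draws on this route at rest, during long effort and when food is short, and it can also use ketone bodies made from fatty acids in the liver.

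Transcript levels were examined for 40 genes of this route, listed by name for their known roles, out of 54838 genes in the count table. The list was drawn up with earlier results of these data known, so its shares beside all genes may depend on that choice. All 40 were found, and all 40 passed the filter on low counts at each age. The listed genes fell into 12 roles, from uptake to ketone body use.

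RNA was sequenced from the tibialis anterior (TA) muscle of *Mtm1* knockout (*Mtm1* KO) mice, which model X-linked myotubular myopathy, and of wild-type (WT) mice, all on the C57BL6/J background with no treatment. *Mtm1* encodes myotubularin, a lipid phosphatase. The knockout mice carry a deletion in the gene on the X chromosome that shifts its reading frame. Muscle was taken at postnatal days 1, 14, 21 and 35 (P1, P14, P21 and P35), with 4 WT and 4 *Mtm1* KO libraries at each age, 32 in all, each numbered as a replicate in the labels. The comparison of genotypes within an age asks which genes differ as the myopathy develops, and the comparison of ages in WT muscle shows the course of the same genes during normal maturation.

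Library totals ran from 49321035 to 85631408 counts. *Mtm1* itself stood at 5.26 to 6.02 normalised CPM (counts scaled to a common library size) in WT and at 2.32 to 3.91 in *Mtm1* KO libraries at P1, and at 20.7 to 24.9 against 3.32 to 3.95 at P35, without overlap at any age. A gene was called different at an adjusted P under 0.01 with a fold change above 1.5 (log2 0.585) in edgeR's quasi-likelihood test, with the Benjamini-Hochberg adjustment taken over each gene in the fit. CPM values are scaled by the trimmed mean of M values (TMM), and levels are compared between genes only after division by transcript length. In whole muscle, fewer cells of a type and less RNA per cell cannot be told apart.

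No member of the list was called at P1 or at P14. At P21, 3 of 40 were called: *Lpl* and *Acadvl* were lower and *Acsl3* was higher in *Mtm1* KO muscle. At P35, 12 of 40 were called, and all 12 were lower, by 1.57- to 2.19-fold. Of all tested genes, 0.0442% were called at P1 and 0.0318% at P14, against 4.67% for P21 and 16% for P35. For genes lower in *Mtm1* KO muscle, the background was 1.5% at P21 and 7.52% at P35, beside 5% and 30% of the members, and for higher genes it was 3.18% and 8.49%. The median log2 fold change of the 40 members was −0.15 for P1, −0.04 for P14, then −0.48 for P21 and −0.51 for P35, while that of all tested genes was 0.01, 0.00, 0.01 and 0.04.

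With the adjusted P alone set at 0.05, 24 members were lower and 1 was higher at P21, and 23 were lower and none higher at P35. The background for lower genes on that looser rule was 9.57% at P21 and 20.1% at P35, and for higher genes 11.4% and 21.4%. Of these members, 19 were lower at both ages, which is 79.2% of the P21 set and 82.6% of the P35 set. The libraries of P21 and P35 came from different samples, so each age is a separate measurement. At P1 and P14, 0 members passed an adjusted P of 0.05 by edgeR (background 0.243% and 0.0954%), 1 and 0 reached an unadjusted P of 0.05 (background 10.9% and 6.82%), and DESeq2 also called 0 at both ages.

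**Figure D1:**
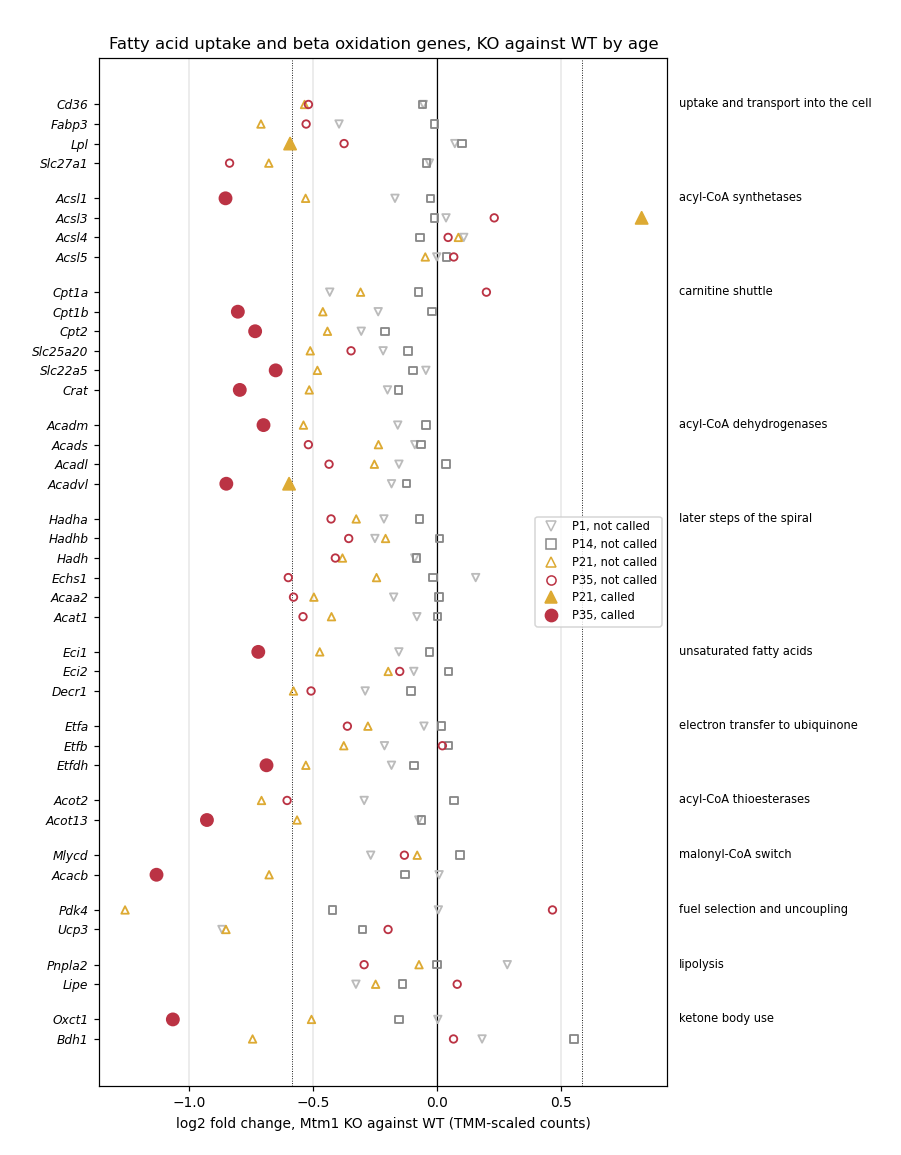
Each row is 1 of the 40 genes, grouped by role, and the horizontal axis gives the log2 fold change of *Mtm1* KO against WT on TMM-scaled counts. Filled symbols are called, and dotted lines mark a fold change of 1.5. Most P14 symbols lie near 0, *Pdk4* and *Bdh1* being farthest from it, whereas most P21 and P35 symbols lie to its left, and *Acsl3* at P21 is the filled symbol on the right.

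The size of the change depended on how libraries were scaled. With library totals in place of TMM, the median of all genes moved from 0.01 to 0.20 at P21 and from 0.04 to 0.44 at P35. On that scale only *Acsl3* was called at P21, and only *Acacb* and *Oxct1* at P35, with a member median of −0.29 and −0.11. The backgrounds given are for TMM, so counts with library totals, here and below, have no share of all genes beside them. The median of the members was below that of all genes under both scalings, though at P35 8 of 40 members lay above 0 with TMM. In *Mtm1* KO muscle at P35, 10.3% to 10.52% of the counts came from the mitochondrial genome, against 12.4% to 17.9% in WT. Leaving those genes out, still with TMM, kept the same 12 members. Library totals without those genes were not run, so their part in the dependence on scaling was not tested.

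**Figure D2:**
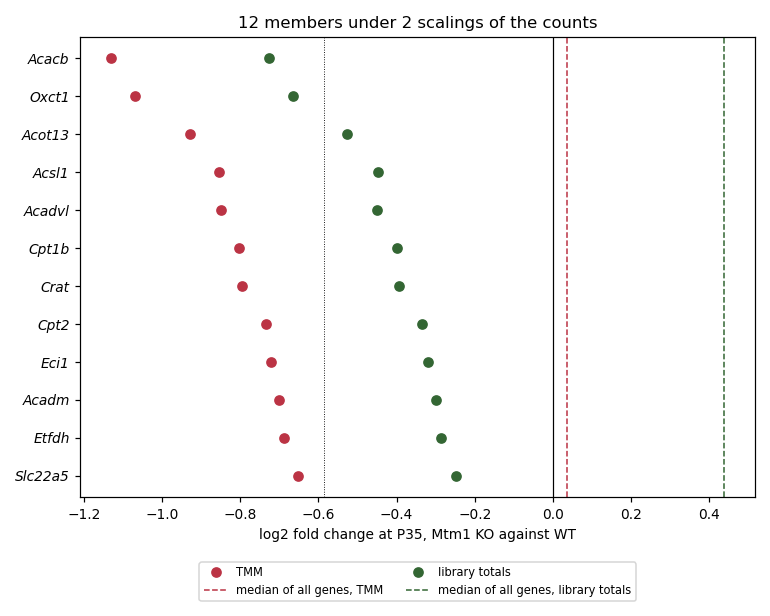
Log2 fold changes at P35 of the 12 called members are drawn with TMM scaling and with library totals, and dashed lines give the median of all genes on each scale. Each member keeps its place to the left of 0 and of the median, while with library totals *Acacb* and *Oxct1* alone stay beyond a fold change of 1.5.

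Other cell types and fibre types also moved with genotype. At P35 the summed level of the 6 slow fibre markers was 111 to 178 CPM in WT and 943 to 2296 CPM in *Mtm1* KO libraries, and 6 of 6 were called higher. The 8 general skeletal muscle fibre markers summed to 140570 to 195413 CPM in WT and 84552 to 114044 in *Mtm1* KO, with 1 of 8 called lower. They include the fast fibre genes *Myh1* and *Myh4*, so this list is not neutral to fibre type. The 3 fast fibre markers summed to 47948 to 65092 CPM in WT and 32909 to 42683 CPM in *Mtm1* KO, with 0 called. Among them *Myh2* was 2.89-fold higher, and *Myh1* and *Myh4* were 1.75- and 1.42-fold lower. Of the 8 adipocyte markers 5 were called higher, with sums of 237 to 368 CPM in WT and 402 to 588 CPM in *Mtm1* KO, and of the 8 macrophage markers 5 were called higher, with sums of 107 to 132 and 141 to 211 CPM. Of the 8 endothelial markers 2 were called lower, with sums of 415 to 715 and 359 to 430.5 CPM. The immature fibre markers, *Myh3* and *Myh8*, were both called higher (17.9- and 3.3-fold), with sums of 10.3 to 20.5 and 76.3 to 158 CPM. The 5 Schwann cell markers were 2.53- to 3.28-fold higher without a call, with overlapping sums of 47.5 to 398 and 208 to 872.5 CPM. No list had all its markers at 0. At P21, 4 of 8 macrophage markers were called higher and no slow, immature or general fibre, adipocyte, endothelial or Schwann cell marker was called. Some sums were apart at P21 all the same. General fibre markers summed to 167328 to 217194 CPM in WT and 147309 to 166371 CPM in *Mtm1* KO. Endothelial markers summed to 646 to 988 and 520 to 624 CPM, and immature fibre markers to 23.5 to 47.1 and 52.85 to 78.45 CPM. The slow fibre, adipocyte and Schwann cell sums overlapped. At P1, the 6 keratinocyte markers summed to 1587 to 6070 CPM over both genotypes, against at most 7.06 CPM at P35, and 1 *Mtm1* KO library (replicate 4) had the lowest muscle marker sum, 16078 CPM. The part of these shifts in the results below was not tested.

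The upstream sequences are shown for called members with the largest falls at P35. Their shared fall is the rule by which they were chosen, and joint regulation was not tested. RefSeq promoter windows of GRCm38.p6, 250 bases before to 50 after a start, matched 33 of the 40 members, with 38 windows. *Acot13* had none. The 250 bases before the RefSeq start of *Acacb* (chr5:114165268-114165517, plus strand) and before each of 2 starts of *Acsl1* (chr8:46470787-46471036 and chr8:46490716-46490965, plus strand), and the 205 bases before *Oxct1* (chr15:4026178-4026382, plus strand), read as follows, with capitals for the 1 motif found in them, CAGCTG, an E-box of the kind bound by MyoD. The *Acacb* stretch lies inside the gene as GENCODE draws it, downstream of the first annotated start, and is intron there but for its last bases. The downstream *Acsl1* start is likewise internal, and the *Oxct1* stretch is covered by an antisense transcript, BC037032.
Acacb: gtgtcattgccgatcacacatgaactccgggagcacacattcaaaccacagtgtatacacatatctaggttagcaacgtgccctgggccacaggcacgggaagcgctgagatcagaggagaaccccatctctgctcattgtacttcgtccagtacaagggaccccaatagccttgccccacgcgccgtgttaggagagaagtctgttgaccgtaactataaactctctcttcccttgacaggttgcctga
Oxct1: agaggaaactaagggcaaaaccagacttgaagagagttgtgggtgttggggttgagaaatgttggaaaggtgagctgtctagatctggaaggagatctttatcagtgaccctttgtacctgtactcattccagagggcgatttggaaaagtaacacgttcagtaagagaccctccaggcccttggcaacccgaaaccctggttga
Acsl1, upstream start: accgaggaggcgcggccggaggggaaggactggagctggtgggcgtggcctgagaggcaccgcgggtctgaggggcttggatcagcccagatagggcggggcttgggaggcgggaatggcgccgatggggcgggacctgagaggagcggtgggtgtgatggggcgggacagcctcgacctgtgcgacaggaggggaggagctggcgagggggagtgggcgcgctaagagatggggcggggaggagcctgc
Acsl1, downstream start: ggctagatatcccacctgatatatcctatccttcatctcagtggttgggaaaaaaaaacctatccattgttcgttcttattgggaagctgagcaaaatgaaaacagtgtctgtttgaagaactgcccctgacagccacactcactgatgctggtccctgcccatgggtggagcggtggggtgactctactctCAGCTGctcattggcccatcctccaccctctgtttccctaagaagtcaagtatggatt

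The 6 motif searches on both strands gave shares near those of all windows or counts too low to compare. The nuclear receptor element AGGTCA was in 7 of 38 member windows, 18.4%, and in 16.3% of 32851 windows of all genes. Of the called members it was in the windows of *Acacb*, where it lies after that start and outside the stretch printed above, *Acadm* and *Acadvl*. The DR1 element bound by PPAR, a repeat of those letters, was in no member window and in 0.0396% of all windows. The ERR site TCAAGGTCA, which also contains it, was in none and in 0.423%. CAGCTG was in 8 of 38, 21.1%, against 16.3%. The NRF1 core was in 1, that of *Etfdh*, against 0.971%, and the MEF2 box in none, against 0.164%.

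*Uptake.* Fatty acids reach the fibre after lipoprotein lipase (*Lpl*) frees them from circulating triglyceride. They enter with the help of the scavenger receptor *Cd36* and the transport protein *Slc27a1*, and *Fabp3* binds them in the cytosol. *Lpl* (chr8:68880491-68907448 on GRCm38, plus strand) stood at 581, 652, 634 and 574 CPM in WT libraries at P21 and at 425, 362, 479 and 341 CPM in *Mtm1* KO libraries. All 4 *Mtm1* KO libraries were below all WT libraries, and the log2 difference was −0.59 (SE 0.11, adjusted P = 0.00662). This call sat at the edge of the fold threshold and was lost in 7 of 8 fits that left out 1 library, all but that without *Mtm1* KO replicate 3. At P35 *Lpl* was not called, at 732 ± 296 CPM (SD, n = 4) in WT and 555 ± 212 CPM in *Mtm1* KO, where 1 WT library reached 1166 CPM and 1 *Mtm1* KO library 857 CPM.

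The other 3 uptake genes were not called at any age. *Fabp3* had the highest level of all 40 members per length in WT muscle at P35, 552 ± 175 CPM per kb (SD, n = 4). Its level was 403 ± 115 CPM in WT and 245 ± 24.4 CPM in *Mtm1* KO muscle at P21 (log2 fold change −0.71, adjusted P = 0.0227), with no overlap between genotypes. At P35 the log2 fold change of *Fabp3* was −0.53 (adjusted P = 0.111), and its libraries overlapped. *Slc27a1* had log2 fold changes of −0.68 at P21 and −0.84 at P35, with adjusted P of 0.0361 and 0.0255, and its libraries overlapped at both ages. *Cd36* had log2 fold changes of −0.53 and −0.52 at those ages, with adjusted P of 0.0182 and 0.0527.

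*Activation.* Long-chain acyl-CoA synthetases attach coenzyme A to the fatty acid, and *Acsl1* is the main form of mature skeletal muscle. *Acsl1* (chr8:46471037-46536051, plus strand) was 337, 506, 582 and 474 CPM in WT libraries and 223, 353, 208 and 248 CPM in *Mtm1* KO libraries at P35. It fell 1.81-fold (log2 fold change −0.85, SE 0.20, adjusted P = 0.0083), yet the lowest WT library lay below the highest *Mtm1* KO library. It was the only one of the 12 called members with such an overlap, and the call was lost in 6 of 8 fits that left out 1 library, all but those without WT replicate 1 or *Mtm1* KO replicate 2.

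*Acsl3*, a form linked to the endoplasmic reticulum and lipid droplets, took the opposite course at P21. *Acsl3* (chr1:78657825-78707743, plus strand) was 15.7, 16.4, 15.0 and 14.3 CPM in WT libraries and 32.3, 30.4, 23.9 and 21.3 CPM in *Mtm1* KO libraries. The genotypes did not overlap, and the rise on the log2 scale was 0.83 (SE 0.13, adjusted P = 0.00284). The call was lost only without WT replicate 1. At P35 *Acsl3* stood at 24.7 ± 6.17 and 28.5 ± 6.68 CPM and no difference was called. In WT muscle itself *Acsl3* was at 52.3 CPM at P1, fell to 18.6 CPM at P14, and rose from 15.3 CPM at P21 to 24.7 CPM at P35 (log2 fold change 0.69, adjusted P = 0.00201).

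*Acsl4* and *Acsl5* differed little between genotypes, with log2 fold changes between −0.07 and 0.11 at the 4 ages and no call. As a share of the 4 synthetase genes per length, *Acsl1* made up 86.3% ± 2.02 (SD, n = 4) in WT and 78.8% ± 0.704 in *Mtm1* KO muscle at P21. *Acsl3* made up 2.74% ± 0.192 and 6.34% ± 0.814 there, with no overlap for either gene. *Acsl5* shares 404 exonic bases with *Zdhhc6* on the other strand, which was the higher of the pair in 24 of 32 libraries, so its level is uncertain where counting ignored strand. *Acsl3* shares 244 exonic bases with *Utp14b* on the same strand, where strand cannot separate them. *Utp14b* was at 1.72 to 6.02 CPM over all libraries, against 14.3 to 59.6 CPM for *Acsl3*, and was the higher in 0 of 32.

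*Carnitine shuttle.* Long-chain acyl-CoA cannot cross the inner mitochondrial membrane. Carnitine palmitoyltransferase 1 moves the acyl group onto carnitine (*Cpt1b* is the muscle form and *Cpt1a* the liver form), the carrier *Slc25a20* takes it across, and *Cpt2* moves it back onto coenzyme A. *Slc22a5* brings carnitine into the cell, and *Crat* acts on short-chain acyl groups such as acetyl. Of these 6 genes 4 were called lower at P35 and none at P21.

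*Cpt1b* (chr15:89416405-89425863, minus strand) was 259, 286, 352 and 273 CPM in WT libraries and 162, 197, 143 and 156 CPM in *Mtm1* KO libraries at P35. Each *Mtm1* KO library was below each WT library, and the gene fell 1.75-fold (log2 fold change −0.80, SE 0.13, adjusted P = 0.00116). At P21 *Cpt1b* was 328, 336, 299 and 287 CPM against 250.5, 222, 209 and 219.5 CPM, again without overlap (log2 fold change −0.46, adjusted P = 0.00349), which was short of the fold threshold. At P1 WT libraries held 99.3, 128.5, 106 and 104 CPM, and *Mtm1* KO ones 84.1, 105, 124 and 55.5 CPM. At P14 WT libraries held 271.5, 247, 293 and 343 CPM, and *Mtm1* KO ones 234, 263.5, 306 and 337 CPM, so the libraries overlapped at both early ages.

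*Cpt1a* (chr19:3322334-3385733, plus strand) showed another pattern. At P1 it was 56.0, 56.2, 53.7 and 53.8 CPM in WT libraries and 35.6, 52.3, 46.0 and 27.5 CPM in *Mtm1* KO libraries, without overlap (background 8.62% in either direction), but the test did not call it (log2 fold change −0.43, unadjusted P = 0.0311, adjusted P = 0.397). It was 32.1, 34.4, 32.4 and 27.1 CPM against 32.2, 31.0, 33.3 and 23.4 CPM at P14. At P21 it was 14.4, 21.7, 18.8 and 19.9 CPM against 13.7, 9.93, 9.77 and 26.7 CPM. At P35 it was 10.3, 15.3, 15.6 and 14.5 CPM against 13.8, 26.4, 10.4 and 12.2 CPM, so the genotypes overlapped at these 3 ages. In WT muscle the mean of the liver form was thus lower at each later age. *Cpt1b* made up 74.7% ± 1.98 (SD, n = 4) of the *Cpt1a* and *Cpt1b* level per length in WT at P1 and 96.9% ± 0.43 at P35, where *Mtm1* KO muscle was at 94.2% ± 1.64, with each *Mtm1* KO library (91.8% to 95.4%) below each WT library (96.5% to 97.4%).

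*Crat* (chr2:30400471-30415813, minus strand) was 570, 575, 650 and 588 CPM in WT libraries and 356, 346, 295 and 351.5 CPM in *Mtm1* KO libraries at P35. The log2 fold change was −0.80 (SE 0.09, adjusted P = 0.000229), and the genotypes were well apart. *Cpt2* (chr4:107903981-107923610, minus strand) was 79.5, 89.1, 113 and 86.8 CPM in WT libraries and 52.9, 55.8, 52.7 and 56.4 CPM in *Mtm1* KO, also without overlap (log2 fold change −0.73, SE 0.11, adjusted P = 0.000718). The *Mtm1* KO libraries of *Cpt2* were close together, with an SD of 1.92 CPM. *Slc22a5* (chr11:53864542-53891660, minus strand) was 18.4, 20.7, 22.03 and 19.5 CPM in WT libraries and 14.1, 13.4, 11.6 and 11.4 CPM in *Mtm1* KO (log2 fold change −0.65, SE 0.10, adjusted P = 0.000912), without overlap. The carrier *Slc25a20* was not called, with log2 fold changes of −0.51 at P21 and −0.35 at P35 and adjusted P of 0.033 and 0.076.

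**Figure D3:**
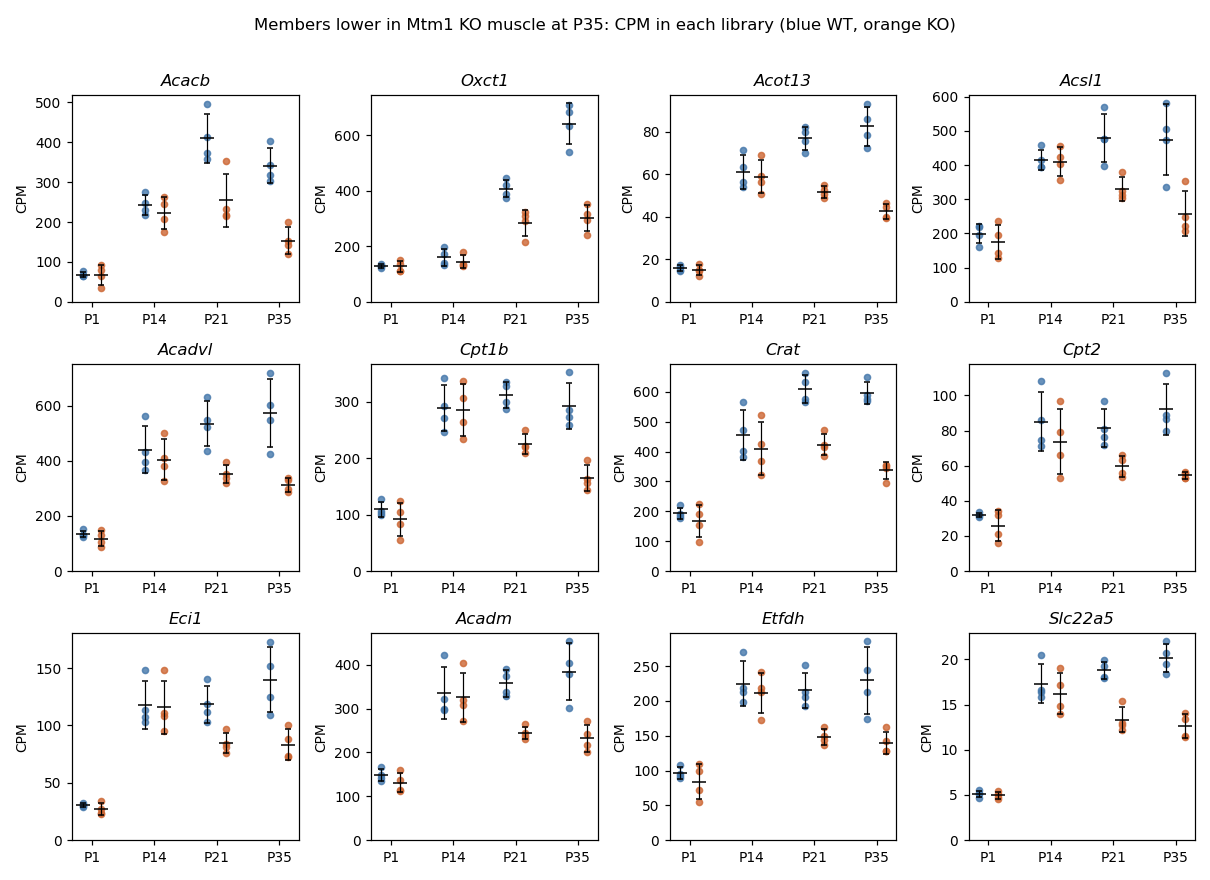
CPM of the 12 members called at P35 is shown for each library at the 4 ages, with WT in blue and *Mtm1* KO in orange. Black bars give the mean and the SD of 4 libraries, and each vertical axis starts at 0. The genotypes overlap at P1 and P14 and separate at P21, and at P35 they overlap for *Acsl1* alone.

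*Beta oxidation.* The first step in each cycle removes hydrogen by an acyl-CoA dehydrogenase chosen by chain length: *Acadvl* for very long, *Acadl* for long, *Acadm* for medium and *Acads* for short chains. *Acadvl* (chr11:70010183-70015411, minus strand) was called at both late ages. At P21 it was 546, 632.5, 523 and 437 CPM in WT libraries and 396, 338, 318 and 352 CPM in *Mtm1* KO libraries (log2 fold change −0.60, SE 0.11, adjusted P = 0.0065). At P35 it was 423, 603, 718.5 and 547 CPM against 299, 329, 285 and 336 CPM (log2 fold change −0.85, SE 0.15, adjusted P = 0.00181), and neither age showed an overlap. The P21 call was lost in 6 of 8 fits that left out 1 library, all but those without WT replicate 4 or *Mtm1* KO replicate 1, and the P35 call in none of 8.

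*Acadm* (chr3:153922357-153944632, minus strand) was 301, 404, 455 and 379.5 CPM in WT libraries and 217, 272, 201 and 241 CPM in *Mtm1* KO libraries at P35. The lowest WT library was still above the highest *Mtm1* KO library (log2 fold change −0.70, SE 0.14, adjusted P = 0.00352). The call was lost in 3 of 8 fits that left out 1 library (WT replicate 2 and *Mtm1* KO replicates 1 and 3). *Acads* and *Acadl* were not called, with log2 fold changes at P35 of −0.52 and −0.44 and adjusted P of 0.0079 and 0.0379.

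The later reactions of the cycle follow. The trifunctional protein, made by *Hadha* and *Hadhb*, hydrates, oxidizes and cleaves long chains, while *Echs1*, *Hadh*, *Acaa2* and *Acat1* serve shorter chains. None of these 6 genes was called at P21 or P35, although all 6 lay below 0 at both ages, from −0.50 to −0.21 at P21 and from −0.60 to −0.36 at P35. On the adjusted P alone (0.05), 4 of 6 passed at P21 and 6 of 6 at P35. *Acat1*, which also acts on ketone bodies, was 227 ± 17.9 CPM in WT and 168 ± 10.1 CPM in *Mtm1* KO muscle at P21 (log2 fold change −0.43, adjusted P = 0.00403). At P35 *Acat1* was 274 ± 39.1 and 185 ± 16.4 CPM (log2 fold change −0.54, adjusted P = 0.00462), without overlap at either age. *Echs1* fell far from its group in both genotypes at P21, with 65.3 CPM in WT replicate 4 and 54.5 CPM in *Mtm1* KO replicate 4 against 119 to 163 CPM in the other 6 libraries.

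*Hadha* and *Hadhb* start 86 bases apart on chromosome 5 and are read in opposite directions. Their CPM ratio was lower at later ages. *Hadha* over *Hadhb* in WT libraries spanned 1.68 to 1.76 (P1), 1.26 to 1.32 (P14), 1.24 to 1.33 (P21) and 0.935 to 0.978 (P35). The *Mtm1* KO libraries spanned 1.52 to 2.01 (P1), 1.15 to 1.28 (P14), 1.15 to 1.24 (P21) and 0.87 to 0.962 (P35).

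*Unsaturated fatty acids and electron transfer.* Double bonds in natural fatty acids are moved or reduced by the isomerases *Eci1* and *Eci2* and the reductase *Decr1*. *Eci1* (chr17:24426641-24439348, plus strand) was 109, 152, 173 and 125 CPM in WT libraries and 73.2, 100.1, 72.1 and 88.0 CPM in *Mtm1* KO libraries at P35. There was no overlap, and the log2 fold change was −0.72 (SE 0.16, adjusted P = 0.00596). Leaving out 1 library ended this call in 6 of 8 fits, all but those without WT replicate 1 or *Mtm1* KO replicate 2. *Decr1* was just short of the fold threshold, with a log2 fold change of −0.58 at P21 and −0.51 at P35 and adjusted P of 0.007 and 0.00662. *Eci2*, found in both mitochondria and peroxisomes, had values of −0.20 and −0.15 and was not called.

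Electrons from the dehydrogenases pass through the flavoprotein of *Etfa* and *Etfb* to *Etfdh*, which hands them to ubiquinone. *Etfdh* (chr3:79603788-79629500, minus strand) was 174, 245, 286 and 213 CPM in WT libraries and 128, 162, 128 and 142 CPM in *Mtm1* KO libraries at P35. The groups lay close but did not overlap (log2 fold change −0.69, SE 0.15, adjusted P = 0.00545). As for *Eci1*, 6 of 8 fits without 1 library lost the call, with the same exceptions. *Etfa* was −0.36 at P35 with an adjusted P of 0.0261. *Etfb* did not move with it: it was 256 ± 47.9 CPM in WT and 256 ± 32.5 CPM in *Mtm1* KO muscle at P35 (log2 fold change 0.02, adjusted P = 0.914), after 266 ± 28.7 and 203 ± 3.35 CPM at P21 (−0.38, adjusted P = 0.0096).

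*Thioesterases.* Acyl-CoA thioesterases release free fatty acid and coenzyme A, *Acot13* and *Acot2* both in mitochondria. *Acot13* (chr13:24817948-24831540, minus strand) was 72.3, 85.9, 93.2 and 78.4 CPM in WT libraries and 39.9, 44.5, 39.3 and 46.7 CPM in *Mtm1* KO libraries at P35. It fell 1.9-fold, and had the smallest adjusted P of the members (log2 fold change −0.93, SE 0.10, adjusted P = 0.000175), with the genotypes wide apart. At P21 *Acot13* also had the smallest adjusted P of the members, 0.000882, but its log2 fold change of −0.56 was under the threshold. *Acot2* was not called, at 15.4 ± 5.98 and 9.92 ± 3.02 CPM at P35, and its near-identical neighbour *Acot1* makes its count uncertain.

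*Malonyl-CoA switch.* Malonyl-CoA blocks carnitine palmitoyltransferase 1. It is made at the mitochondrion by *Acacb*, acetyl-CoA carboxylase 2, and broken down by *Mlycd*. *Acacb* (chr5:114146535-114250761, plus strand) was 303, 319, 402 and 343 CPM in WT libraries and 152, 199, 119 and 142 CPM in *Mtm1* KO libraries at P35. This was the largest log2 fold change among the called members, −1.13 (SE 0.16, adjusted P = 0.000607), a 2.19-fold fall without overlap. At P21 *Acacb* was 496, 413, 373.5 and 359 CPM in WT libraries and 354, 215, 218 and 232 CPM in *Mtm1* KO (log2 fold change −0.68, adjusted P = 0.0177) and was not called. *Mlycd* differed little, at 102 ± 18.6 CPM in WT and 91.8 ± 14.8 CPM in *Mtm1* KO at P35 (log2 fold change −0.13, adjusted P = 0.505). Of these members *Acacb* was thus called lower and *Mlycd* was not called, and the difference between them was not tested.

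*Ketone body use.* *Oxct1* activates acetoacetate and is the enzyme that lets tissues outside the liver burn ketone bodies, and *Bdh1* interconverts the main ketone bodies. *Oxct1* (chr15:4026383-4155344, plus strand) was 682, 541, 708 and 633 CPM in WT libraries and 352, 318, 240.1 and 293 CPM in *Mtm1* KO libraries at P35. The genotypes were far apart, with a 2.09-fold fall (log2 fold change −1.07, SE 0.13, adjusted P = 0.000372). At P21 *Oxct1* was 388, 376, 445 and 421 CPM in WT libraries and 216, 324, 307 and 290.5 CPM in *Mtm1* KO (log2 fold change −0.51, adjusted P = 0.0227). *Bdh1* was among the lowest members, with 7.33 ± 5.71 CPM in WT and 7.53 ± 5.72 CPM in *Mtm1* KO at P35, and was not called at any age.

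*Fuel selection, uncoupling and lipolysis.* *Pdk4* inhibits pyruvate dehydrogenase and so spares glucose, and *Ucp3* is an inner membrane carrier, both known to rise in muscle with fasting. Neither was called, and both spread widely within groups: over the 8 groups the median coefficient of variation was 55.3% for *Pdk4* and 40.8% for *Ucp3*. *Pdk4* at P21 was 96.8, 1375, 871 and 188 CPM in WT libraries and 232, 189.8, 115 and 519.5 CPM in *Mtm1* KO libraries, which overlapped (log2 fold change −1.26, SE 0.77, adjusted P = 0.271). The highest *Pdk4* library stood 14.2-fold above the lowest in WT at P21, and more than 2-fold above it in 7 of 8 groups. The library lowest in *Pdk4* was also lowest in *Ucp3* in 6 of 8 groups, and the highest library was shared in 4 of 8, a pattern chosen after its values were seen. The lipases *Pnpla2* and *Lipe*, which act in sequence on stored triglyceride, were not called, with log2 fold changes of −0.29 and 0.08 at P35 and adjusted P of 0.113 and 0.838.

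**Figure D4:**
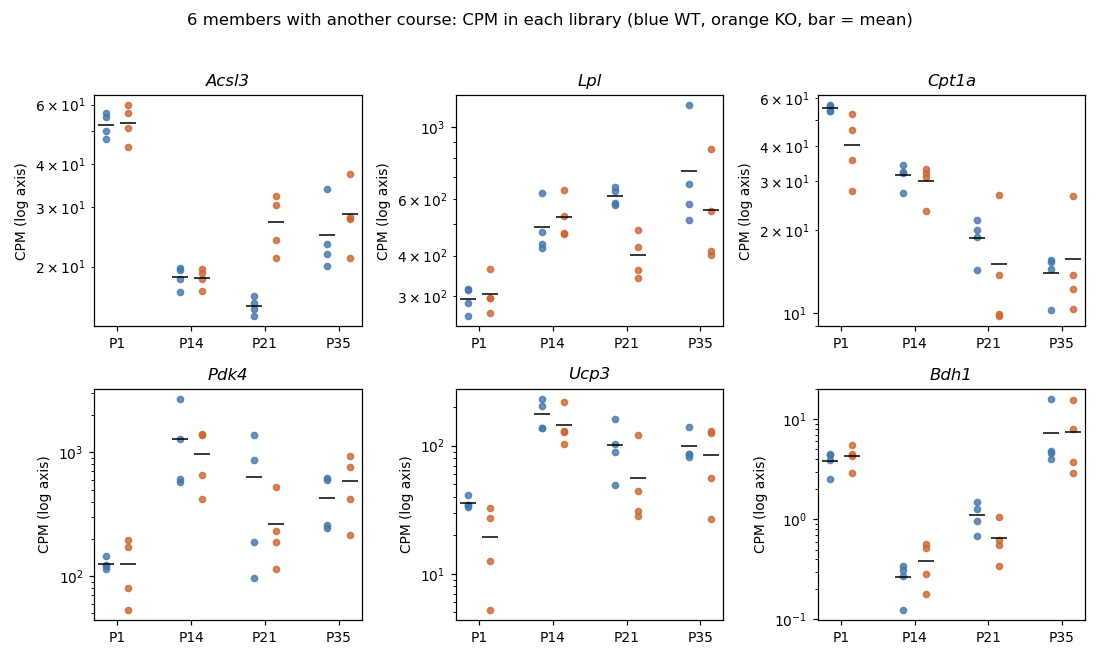
CPM on a log axis for 6 members with another course, in each library at the 4 ages, with WT in blue, *Mtm1* KO in orange and a bar at the mean. *Acsl3* is called higher in *Mtm1* KO muscle at P21, *Lpl* is lower there, *Cpt1a* declines with age in WT, and *Pdk4*, *Ucp3* and *Bdh1* spread widely within groups.

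The 12 members called at P35 were already lower at P21 in the separate samples of that age. All 12 had an adjusted P under 0.05 there, with log2 fold changes from −0.68 to −0.44, and none of the 12 overlapped between genotypes. Of all tested genes, 11% were lower without overlap at P21. That share is no matched background, because the 12 were chosen by their call at P35. The share among all genes called lower at P35 was not computed. Each of the 12 was further from 0 at P35 than at P21, which their choice by the P35 call largely fixes. At P35, 11 of the 12 did not overlap, and over all 40 members 17 were lower without overlap (background 20.4%), as were 23 at P21.

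Whether the genotype effect changed between neighbouring ages was tested as an interaction over all 32 libraries. No member passed an adjusted P of 0.01 in any of the 3 intervals, by edgeR, against backgrounds of 0.0161%, 0.425% and 0.463% in order of age. From P14 to P21, 15 of 40 members reached an unadjusted P of 0.05 (background 12.9%), and the median change in effect was −0.42. The smallest adjusted P was that of *Acsl3*, 0.0402, with a change of 0.82 on the log2 scale, followed by *Acat1* at 0.0831 and *Acot13* at 0.0895. From P21 to P35, 4 members reached an unadjusted P of 0.05 (background 17.4%), and from P1 to P14 none did (background 6.46%). *Oxct1* and *Acsl3* had the smallest values from P21 to P35, with changes of −0.57 and −0.61 and adjusted P of 0.123 and 0.119. The fall of *Oxct1* at P35 was therefore not shown to exceed that at P21.

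The same genes were followed through normal maturation. From P1 to P14 in WT muscle, 34 of 40 members were called, 30 higher and 4 lower, against a background of 24.2% higher and 29.3% lower, 53.5% in all. The scaling bore on this count: with library totals 21 were called, 15 higher and 6 lower. *Pdk4* (log2 fold change 3.35), *Fabp3* (2.57), *Ucp3* (2.31) and *Decr1* (2.06) rose most, and *Bdh1* (−3.83), *Acsl3* (−1.49), *Cpt1a* (−0.80) and *Acsl5* (−0.75) fell. *Oxct1* was not called in this interval (0.32, adjusted P = 0.0442). Over the same interval the general fibre markers went from 24915 to 33503 CPM (P1) to 151698 to 201951 CPM (P14) in WT libraries. Fibroblast marker sums went from 12229 to 18451 CPM to 3741 to 8605 CPM, and keratinocyte marker sums from 1903 to 6070 CPM to 2.949 to 3.719 CPM. The part of these shifts in the course of the members was not tested.

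Later, few members moved in WT muscle. From P14 to P21, 3 were called, all higher: *Oxct1* (log2 fold change 1.35, adjusted P = 1.67e-07), *Bdh1* (2.03, adjusted P = 0.00996) and *Acacb* (0.75, adjusted P = 0.00754). From P21 to P35 again 3 were called, all higher: *Bdh1* (2.74, adjusted P = 0.00032), *Oxct1* (0.65, adjusted P = 0.00197) and *Acsl3*, given above. The backgrounds were 6.83% (3.04% higher, 3.8% lower) and 4% (2.23% higher, 1.77% lower). With 1 library left out, 1 or 2 members were called from P14 to P21 (1 without replicate 1, 2 or 3 of either age) and 2 or 3 from P21 to P35. *Oxct1* thus went from 129 CPM at P1 to 160.3, 407 and 641 CPM in WT muscle, whereas *Mtm1* KO means at the same ages were 128, 144.5, 284 and 301 CPM.

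The CPM of the 40 members were also summed, without division by length, so members with high counts weigh most in the summed level. It was 3685 to 4275 CPM in WT and 2837 to 4444 CPM in *Mtm1* KO libraries at P1, and 7984 to 13191 and 7313 to 11329 CPM at P14. At P21 it was 7995 to 11395 against 6165 to 7319 CPM, without overlap, and at P35 8150 to 12370 against 5804 to 8358 CPM, with 1 pair of libraries crossing. The widely spread *Pdk4* and *Ucp3* together gave 1060 of the 8358 CPM in the crossing *Mtm1* KO library. They also gave 2880 of the 13191 CPM in the highest WT library at P14.

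Genes around the route were counted by lists chosen along with the members, also with earlier results of these data known. The background for these lists was 7.52% called lower and 8.49% called higher at P35, and 1.5% and 3.18% at P21. The PPAR, ERR and PGC-1 families, which switch on genes of fatty acid use, were listed with partner genes that include a corepressor. Of this list 4 of 14 genes were called at P35, all lower. Of these *Ppargc1a*, the coactivator PGC-1α, went from 57.6 ± 6.52 CPM in WT to 25.5 ± 2.09 CPM in *Mtm1* KO muscle (log2 fold change −1.15, adjusted P = 8.51e-05). *Lpin1*, a phosphatidate phosphatase that is also a coactivator, was 307 ± 50.6 against 139.5 ± 13.5 CPM (−1.12, adjusted P = 0.000228), and the corepressor *Ncor1* was 147 ± 12.3 against 92.9 ± 8.83 CPM (−0.63, adjusted P = 0.00086). With library totals 3 of 14 were called, all lower. At P21, 2 of 14 regulators were called, both lower.

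The citric acid cycle, which takes the acetyl-CoA that beta oxidation makes, had 14 of 18 genes called at P35, all lower, and the pyruvate dehydrogenase complex and its regulators 8 of 12, all lower. *Idh3a*, a subunit of isocitrate dehydrogenase, went from 1239 ± 74.2 to 561 ± 74.3 CPM (−1.12, adjusted P = 0.000135). *Suclg1* (−0.92), *Dld* (−0.85), *Dlat* (−0.90), *Pdha1* (−0.97) and *Pdhx* (−0.82) followed with adjusted P of 0.000344 or smaller. These shares stood beside 30% of the fatty acid members, and the difference between lists was not tested. They also rested on the scaling: with library totals 2 of 18 citric acid cycle genes were called, both lower, and 2 of 12 of the pyruvate dehydrogenase list, 1 lower and 1 higher. At P21 the same lists had 2 of 18 and 3 of 12 called lower.

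Peroxisomal beta oxidation, a separate pathway for very long and branched chains, had 3 of 17 called lower at P35, *Abcd2*, *Pex11a* and *Crot* (log2 fold changes −0.87, −0.74 and −0.62). For this list and those that follow, the background was 7.52% lower and 8.49% higher. Counts of 1 or 2 genes in such short lists are too low to compare with it. The genes of lipid droplets and triglyceride synthesis had 5 lower and 1 higher of 18. The lower ones included *Lpin1* again, *Fitm2* (−0.77) and *Abhd5* (−0.62), the last being the coactivator of the lipase *Pnpla2*. With library totals that list had 2 lower and 3 higher. Among other genes of uptake and binding 2 of 14 were lower: *Gpihbp1* (−0.84), which anchors *Lpl* on capillaries, and *Got2* (−0.79). With library totals no gene of that list was called lower and 5 were called higher, while the peroxisomal list had 1 gene called higher and none lower. The median of all genes was 0.44 on that scale. Other dehydrogenases and thioesterases were split, 2 lower and 2 higher of 16, with *Acad11* (−1.001) and *Hibch* (−0.62) lower and *Decr2* (1.15), the peroxisomal reductase, higher, and library totals gave 1 lower and 3 higher.

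Of 13 fatty acid synthesis genes, 3 were called higher and 1 lower, beside backgrounds of 8.49% and 7.52%. *Elovl1* (0.69) and *Elovl6* (0.97), which lengthen fatty acids, were higher, and *Me1* (−0.90), which makes NADPH for synthesis, was lower, whereas library totals gave 5 higher and none lower. AMPK, the energy sensor that restrains *Acacb*, changed in its subunits: *Prkab2* was 568 ± 136 CPM in WT and 196 ± 27.6 CPM in *Mtm1* KO (−1.51, adjusted P = 0.000252). The catalytic subunit *Prkaa2* was lower (−0.82, adjusted P = 0.000201) while the catalytic subunit *Prkaa1* was higher (0.86, adjusted P = 0.00021). Per library, *Prkaa2* was 409 to 515 CPM in WT and 246.5 to 258 CPM in *Mtm1* KO, and *Prkaa1* was 25.6 to 27.3 CPM in WT and 38.1 to 50.05 CPM in *Mtm1* KO, so neither overlapped. Over the 7 AMPK genes 2 were called lower and 1 higher, and with library totals 1 lower and 2 higher.

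**Figure D5:**
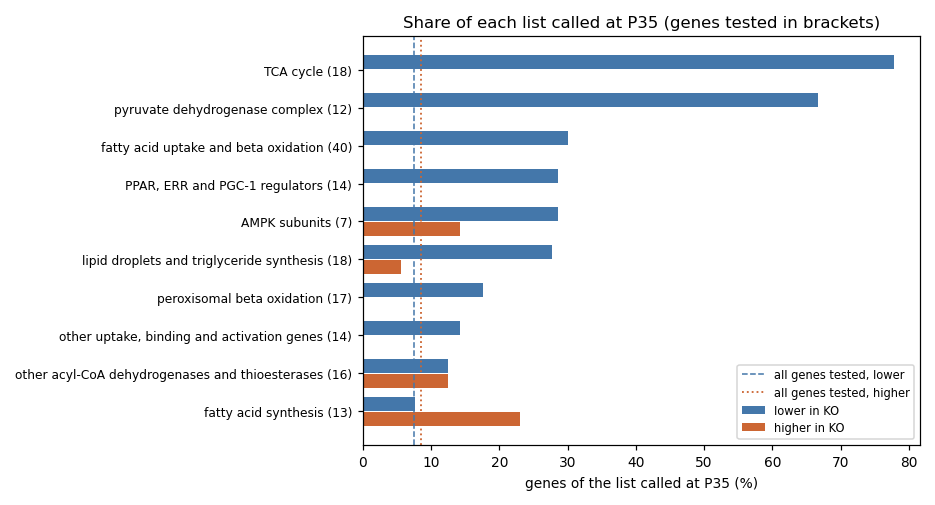
Bars give the share (%) of each list called lower (blue) or higher (orange) in *Mtm1* KO muscle at P35, with the number of genes tested in brackets and the shares of all tested genes as vertical lines. The citric acid cycle and pyruvate dehydrogenase lists lie farthest right at 77.8% and 66.7%, and for genes called lower the 40 fatty acid genes follow at 30%.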

How the data were processed

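Poly(A) RNA of 32 muscle samples was sequenced by the study with a directional kit. The authors deposited 1 table of expected counts per gene, not normalized, in which 4.26% of values are not whole. The labels' processing notes list STAR 2.6.1, RSEM 1.2.22 and DESeq2, with GRCm38, whereas HTSeq is given for counting in the methods. The annotation release and the use of strand are not given in the sources used here. The labels call the tissue skeletal muscle, and the methods name the TA.

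The expected counts were first rounded, low genes were removed by edgeR's filterByExpr, TMM factors were computed, and the quasi-likelihood test of edgeR 4.0.16 (R 4.3.3) compared 4 *Mtm1* KO with 4 WT libraries at each age. WT ages and interactions were fitted over all 32 libraries. P-values were adjusted by the Benjamini-Hochberg method over all genes tested, and they measure only the spread between these samples. Standard errors are the log2 fold change over the square root of F. Levels per kb use the principal transcript of GENCODE M21. DESeq2 1.42.0, other scalings, filters, a replicate block and leaving out each library were alternatives. The procedure was tested on simulated data.

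Values in every library are given for the members called and for *Cpt1a* and *Cpt1b*, other members by means and counts, and of each companion list the 3 called genes with the smallest adjusted P. Members and lists were chosen with earlier results of these data known. Replicate numbers are shared across genotypes. Deviations of same-numbered libraries correlated at 0.45 to 0.83 at P14, where every pair exceeded 0.1, and the block left 0 members called there.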

Additional observations from a re-analysis of the deposited data

Results flagged for a closer look

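In 4 of 128 groups of 4 libraries, 1 library lay far from the other 3 by Dixon's ratio, and chance gives about 1 in 20. *Acacb* was 353.8 CPM in *Mtm1* KO replicate 1 at P21, against 215.1 to 232.0 CPM in the others. *Crat* was 295.1 CPM in *Mtm1* KO replicate 3 at P35, against 346.2 to 355.9 CPM. *Oxct1* was 179.3 CPM in *Mtm1* KO replicate 4 at P14, against 129.3 to 135.4 CPM. *Slc22a5* was 20.47 CPM in WT replicate 3 at P14, against 15.85 to 16.58 CPM.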

How the results depend on the processing

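No called member changed direction between genotypes under the alternatives run. At P21, against 3 members called, DESeq2 called 7, library totals 1, no filter on low counts 5, an adjusted P of 0.05 alone 25 and of 0.01 alone 14, and leaving out 1 library gave 1 to 6. The count was 1 without WT replicate 1, 2 or 3 or *Mtm1* KO replicate 4, and 6 without WT replicate 4. That last library had a slow fibre marker sum of 1148 CPM, against 357 to 384 CPM in the other WT libraries of P21. The *Mtm1* KO libraries of that age spanned 764 to 1176 CPM. At P35, against 12, library totals gave 2, an adjusted P of 0.05 alone 23, and leaving out 1 library 8 to 16. For WT muscle, library totals called 21 from P1 to P14 against 34. From P14 to P21, against 3, the replicate block gave 1 and leaving out 1 library 1 to 2, with 1 without replicate 1, 2 or 3 of either age. From P21 to P35, against 3, the block gave 1. The causes were not tested. Between genotypes the block called 3 members at P21, where *Acadvl* lost its call and *Acacb* gained one, and the same 12 at P35; same-numbered libraries correlated at −0.45 to −0.02 at P1, −0.08 to 0.32 at P21 and −0.12 to 0.28 at P35, so the numbers were not taken as pairs there. Over all alternative settings of the members called at P35, 209 of 240 kept the call and 31 lost it. At P21, 42 of 60 kept it and 18 lost it. These totals include the adjusted P of 0.05 or 0.01 alone, which reuse the main fit under a looser rule and so cannot lose a call. With 4 libraries a group, differences smaller than the spread within groups could not be called.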
